A study of Mus musculus with 8 samples.

Results

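The effect of the Gcnf-/- genotype that head and trunk have in common was estimated from all 8 of the 8 RNA-seq libraries of the study, taken whole by rule and not by any measured value. Each gene received 1 genotype difference, with the region held constant. Gcnf, germ cell nuclear factor, is the orphan nuclear receptor encoded by Nr6a1. The mouse embryos, which had 9 to 11 somites and were aged E9.25, were homozygous mutant (Gcnf-/-) or wild type (wt). Each embryo part was either anterior (the first pharyngeal arch and everything in front of it) or posterior (the second arch and everything behind it). The 4 groups were Gcnf-/- anterior and Gcnf-/- posterior pieces, numbered 159 and 163 in both, and wt anterior and wt posterior pieces, numbered 153 and 156 in both, with 2 libraries each. The labels name no treatment, and the strain, the part of the gene that the allele lacks and the number of embryos in a piece have no entry in the sources used here.

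Gcnf represses transcription from direct repeats of the nuclear receptor hexamer AGGTCA, and it is known for switching off Pou5f1 (Oct4) when the early embryo leaves pluripotency. At midgestation it is broadly expressed in neural tissue and in mesoderm, and mouse embryos that lack it are known to stop axial growth and to die at that stage with heart, vessel and neural tube defects. Head and trunk differ strongly in their own gene programmes. A gene that differs between genotypes by the same amount in both is therefore described apart from regional genes.

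Values are TPM, in which reads are divided by the length of the gene and brought to 1 common sum per library. Differences are Gcnf-/- minus wt on the scale of log2(TPM + 1), where 1 is about a doubling, and each is given with its standard error (SE) from 4 libraries per genotype. Depth recovered from the table was 27064113 to 52957993 reads in genes per library. The library pairs of a group correlated at 0.984 to 0.992 over the 16699 genes tested. Nr6a1 itself, chr2:38723370-38927688 on GRCm38, had 239.8 and 202 TPM in Gcnf-/- anterior pieces, against 194 and 205 TPM in wt anterior pieces, and 158 and 116 TPM in Gcnf-/- posterior pieces, against 157 and 165 TPM in wt posterior pieces. The groups overlapped in both regions (difference -0.05 ± 0.12, limma adjusted p = 0.78), so the transcript level does not check the labels. Both libraries numbered 159 had Xist (25.3 and 30.9 TPM), while the other 6 had the Y-linked Ddx3y at 26.2 to 39.4 TPM. Genotype and sex are thus not balanced. The labels do not say whether same-numbered anterior and posterior pieces are from 1 embryo or whether the libraries of a group are from separate embryos. If the numbers are embryos there are 2 per genotype, where an exact permutation test cannot go below p = 0.333, and the p-values given here measure only the spread between these libraries.

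Over both regions, 4785 of 16699 genes passed the threshold for genotype (28.7%; limma, Benjamini-Hochberg adjusted p under 0.05), 2919 of them higher in Gcnf-/- pieces (17.5%) and 1866 lower (11.2%). Shared differences were mostly small. Of the called genes, 87.3% differed by less than 1 on the log2 scale, and the median size was 0.50 against a median SE of 0.10. By size, 199 genes were called below 0.25, 2219 between 0.25 and 0.5, 1760 between 0.5 and 1, 529 between 1 and 2, and 78 at 2 or more. Direction went with size. Of the calls at 2 or more, 68 were higher and 10 lower, and between 0.25 and 0.5 there were 1054 higher and 1165 lower. The large rises outnumber the large falls on each of 3 scalings, but the overall split depends on the scale. It was 61% higher on the deposited TPM, 49.2% (2782 higher, 2868 lower) after median-of-ratios scaling and 45.8% (2306 higher, 2728 lower) after quantile normalization, and the median difference of all genes was 0.04, -0.00 and -0.04 on these 3 scales.

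In 3475 of the called genes (72.6%), the smaller regional difference was at least 0.5 of the larger. All 4785 had the same sign in both regions, which the additive fit favours, since a gene with opposite signs gets a large spread. In 4412 genes (26.4% of those tested; 16.5% higher, 9.92% lower) the Gcnf-/- and wt libraries also did not overlap in either region. Called or not, 35.4% of all genes tested were apart in this way. The genotype effect itself differed between the regions in 169 genes (1.01%), and 58 of these were among the genes called for genotype. That count was 20 without wt posterior library 153 and 0 without both libraries numbered 153. The count of called genes rested on few libraries: it was 2965 without wt anterior library 153, 3177 without wt anterior library 156, 3075 without Gcnf-/- anterior library 163 and 1461 without both libraries numbered 153. In the settings tried, a called gene never took the other sign.

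**Figure D1:**
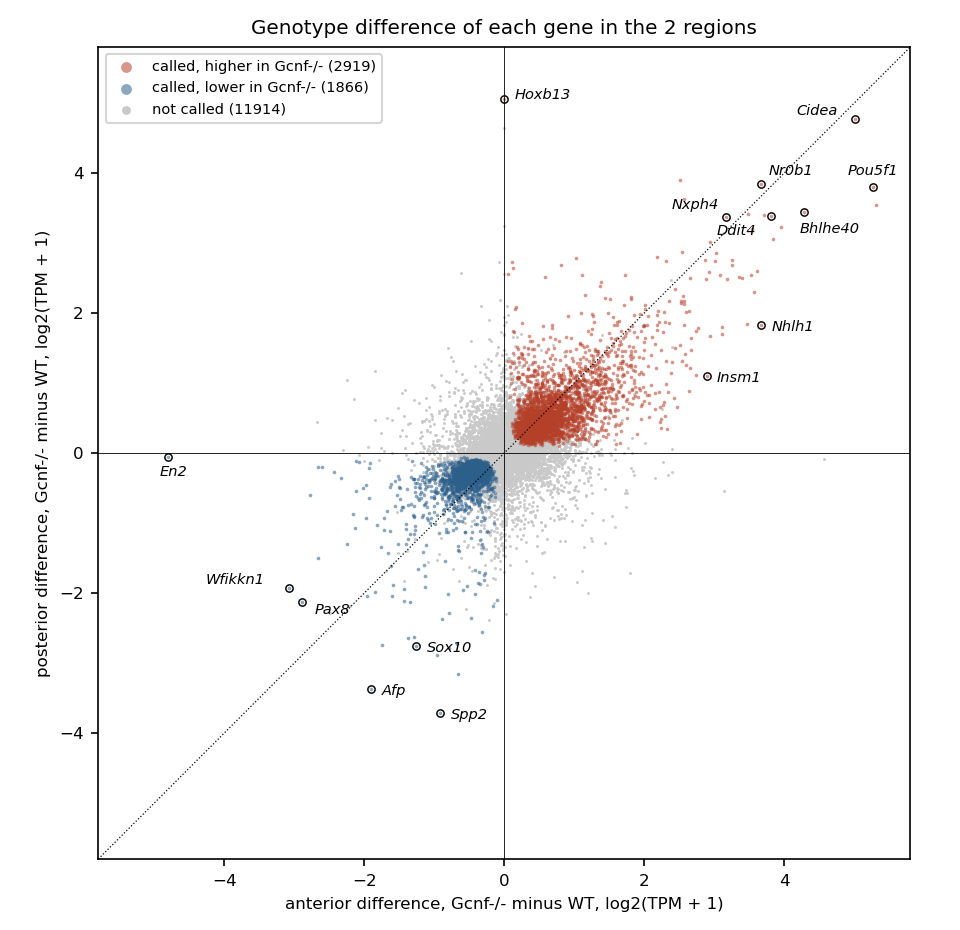
Genotype difference (Gcnf-/- minus wt, log2(TPM + 1)) of each of 16699 genes in anterior pieces (x axis) and posterior pieces (y axis), with the 2919 genes called higher in red, the 1866 called lower in blue and the others in grey. The dotted line marks equal differences. Cidea lies close to it at 5.01 and 4.77, while Hoxb13 (0.00 and 5.06) and En2 (-4.81 and -0.06) lie on the axes.

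Several of the largest shared rises were genes that wt pieces hardly contained and that Gcnf-/- pieces held at much the same level in head and trunk. Cidea, a protein that fuses lipid droplets and is best known from brown fat, had 28.1 and 37.8 TPM in Gcnf-/- anterior pieces, against 0 and 0.0936 TPM in wt anterior pieces, and 32.8 and 31.7 TPM in Gcnf-/- posterior pieces, against 0.121 and 0.319 TPM in wt posterior pieces. Its 4 Gcnf-/- libraries stood within a narrow band, and every wt library was below 1 TPM (difference 4.89 ± 0.13, adjusted p = 1e-07). Fabp3, a fatty acid carrier of heart and muscle, had 33.4 and 29.4 TPM in Gcnf-/- anterior pieces, against 1.68 and 1.9 TPM in wt anterior pieces, and 28.9 and 33.4 TPM in Gcnf-/- posterior pieces, against 1.14 and 4.67 TPM in wt posterior pieces. All 4 Gcnf-/- libraries were above all wt libraries (difference 3.37 ± 0.25, adjusted p = 5.6e-05). Of the 18 tested genes of a list for lipid droplets and lipid uptake, 1 of which (Cidea) passed the filter only through the Gcnf-/- libraries and 2 only through the wt libraries, 8 rose and 2 fell. Over all genes 17.5% were higher and 11.2% lower. The median difference was 0.27 in the list against 0.04 over all genes. The others that rose included Vldlr, a lipoprotein receptor (1.67 ± 0.14), and Fabp7, the fatty acid carrier of neural progenitors (3.20 ± 0.36). Oxct1, the mitochondrial enzyme that lets tissues burn ketone bodies, had the smallest p of all genes and was picked for that after its values were seen, with means of 209 TPM in Gcnf-/- libraries and 25.6 TPM in wt libraries and a difference of 2.98 ± 0.07.

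The paralogous zinc finger genes Bcl11a and Bcl11b were among the 10 largest shared rises. Bcl11a, a repressor known from the fetal globin switch and from lymphoid and neural development, had 13 and 14.1 TPM in Gcnf-/- anterior pieces, against 0.0971 and 0.135 TPM in wt anterior pieces, and 10.8 and 10.1 TPM in Gcnf-/- posterior pieces, against 0.0408 and 0.124 TPM in wt posterior pieces. Its paralog Bcl11b had 13.4 and 18.8 TPM in Gcnf-/- anterior pieces, against 0.092 and 0.0901 TPM in wt anterior pieces, and 10.7 and 9.82 TPM in Gcnf-/- posterior pieces, against 0.149 and 0.254 TPM in wt posterior pieces. Every wt library was below 1 TPM for both genes, and every Gcnf-/- library was near 10 TPM or above. The differences were 3.55 ± 0.12 for Bcl11a (chr11:24078056-24174123) and 3.59 ± 0.17 for Bcl11b (chr12:107910403-108003602), with limma adjusted p = 7.3e-07 and 8.3e-06. Nxph4, a secreted neurexophilin that binds neurexins, had 9.85 to 26.7 TPM in Gcnf-/- libraries, against 0.827 to 1.44 TPM in wt libraries, without overlap (difference 3.27 ± 0.24, adjusted p = 5.3e-05).

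Of the 17 pluripotency genes tested 5 rose and 2 fell, against 17.5% higher and 11.2% lower over all genes. Pou5f1, the POU factor that maintains pluripotency and that Gcnf is known to repress, had 94.4 and 127 TPM in Gcnf-/- anterior pieces, against 1.94 and 1.81 TPM in wt anterior pieces, and 77.2 and 62 TPM in Gcnf-/- posterior pieces, against 3.95 and 4.18 TPM in wt posterior pieces. Nr0b1 (Dax1), a nuclear receptor of embryonic stem cells that lacks the usual DNA-binding domain, had 19.6 and 18.9 TPM in Gcnf-/- anterior pieces, against 0.413 and 0.808 TPM in wt anterior pieces, and 19.9 and 19.3 TPM in Gcnf-/- posterior pieces, against 0.149 and 0.787 TPM in wt posterior pieces. Nanog, a homeobox factor of the same network, had 19.7 and 22.2 TPM in Gcnf-/- anterior pieces, against 0.903 and 1.07 TPM in wt anterior pieces, and 5.05 and 3.68 TPM in Gcnf-/- posterior pieces, against 0.42 and 0.539 TPM in wt posterior pieces. In all 3 genes the genotypes did not overlap in either region, and the differences were 4.53 ± 0.26, 3.75 ± 0.15 and 2.66 ± 0.29 (limma adjusted p = 1.9e-05, 2.5e-06 and 0.00038). Nr0b1 had differences of 3.66 anterior and 3.85 posterior. For Pou5f1 and Nanog the smaller regional difference was also above 0.5 of the larger, but the anterior difference exceeded the posterior one by 1.47 ± 0.23 and 1.62 ± 0.25 (limma adjusted p of the difference between regions = 0.026 and 0.024). The list has 20 genes, and 5 of the 17 tested passed the filter only through the Gcnf-/- libraries, Nr0b1 and Nanog among them. Lin28a, an RNA-binding protein of early embryos, went the other way, with 509 to 881 TPM in Gcnf-/- libraries, against 905 to 1226 TPM in wt libraries (difference -0.66 ± 0.09, adjusted p = 0.0012). Of 20 germ line genes 9 were tested, 2 of them only through the Gcnf-/- libraries and 1 only through the wt libraries, and 4 rose and 1 fell, with 1 rise without Gcnf-/- posterior library 163 and 2 without Gcnf-/- anterior library 163 or wt anterior library 153 or 156. Among them Tfap2c, a factor of germ cell specification and of surface ectoderm, had 19.4 to 56.2 TPM in Gcnf-/- libraries, against 12.2 to 18.4 TPM in wt libraries (difference 1.15 ± 0.17). Libraries here do not keep the strand of the RNA, so reads of overlapping genes on opposite strands cannot be told apart. Partners were searched only for genes picked by rule, and not for genes added after their values were seen, such as Oxct1, Egln3 and Chac1. Among the searched genes named in this section, partners with a mean of at least 1 TPM overlap Fabp3 (Zcchc17), Ankrd37 (Ufsp2) and Ddit3 (Mars). Such partners also overlap Alas2 (Apex2), Ptpmt1 (Kbtbd4), Ppp2r1b (Sik2), Bop1 (Mroh1), Hmga1 (AI413582) and Lin28a (Gm13061).

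Promoters of Pou5f1 and Nr0b1 are shown because the hexamer bound by Gcnf is defined by sequence and both genes rose. Only windows that hold a match are printed, so these are no sample of the risen genes. The windows are the 250 bases before the annotated start (RefSeq, GRCm38.p6), read 5′ to 3′, with each AGGTCA on either strand in capitals. The hexamer begins 33 bases before the start of Pou5f1 (chr17:35505782-35506031, plus strand) and 126 bases before that of Nr0b1 (chrX:86191525-86191774, plus strand).
Pou5f1: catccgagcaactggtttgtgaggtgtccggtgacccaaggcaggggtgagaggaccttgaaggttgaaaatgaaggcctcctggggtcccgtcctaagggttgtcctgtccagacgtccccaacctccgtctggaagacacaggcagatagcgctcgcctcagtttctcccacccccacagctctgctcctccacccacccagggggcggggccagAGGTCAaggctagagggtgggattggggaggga
Nr0b1: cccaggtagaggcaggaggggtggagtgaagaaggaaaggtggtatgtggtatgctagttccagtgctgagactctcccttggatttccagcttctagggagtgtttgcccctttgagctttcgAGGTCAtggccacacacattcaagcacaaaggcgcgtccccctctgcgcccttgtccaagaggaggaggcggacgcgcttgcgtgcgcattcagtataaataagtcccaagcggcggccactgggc
A single AGGTCA on either strand occurs in 14% of the 32851 windows of this table, and in windows of 12.9% of the 11082 tested genes that have one. It occurs in windows of 4 of the 15 pluripotency genes with a window, and of 1 of the 7 large shared rises with one. The exact direct repeat of AGGTCA with no spacer was found in 2 of the 32851 windows and in none of these genes. Inexact repeats were not searched for, and in the Pou5f1 window the hexamer is followed directly by aggcta. A match describes the letters of a window and not a bound site.

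Genes that cells induce when oxygen is short rose as a block in head and trunk. Hypoxia-inducible factor drives these genes through the core motif ACGTG when its oxygen-dependent hydroxylases slow down. Of 24 listed targets, 1 of which passed the filter only through the Gcnf-/- libraries, 23 rose and none fell, with a median difference of 1.27 (1.31 anterior, 1.12 posterior), against 17.5% higher and a median of 0.04 over all genes tested. The remaining member, Higd1a, had a difference of 0.25 ± 0.09. In the settings tried, 20 to 24 of the 24 rose. Ddit4, an inhibitor of mTORC1 signalling, had 959 and 1478 TPM in Gcnf-/- anterior pieces, against 72.3 and 98.4 TPM in wt anterior pieces, and 1062 and 926 TPM in Gcnf-/- posterior pieces, against 78.7 and 113 TPM in wt posterior pieces. All 4 Gcnf-/- libraries stood far above all wt libraries, by 14.3 times in anterior pieces and 10.4 times in posterior pieces (difference 3.59 ± 0.18, adjusted p = 8.6e-06). Bhlhe40, a basic helix-loop-helix repressor, had 30.2 and 47.1 TPM in Gcnf-/- anterior pieces, against 1.25 and 0.776 TPM in wt anterior pieces, and 42.2 and 30.6 TPM in Gcnf-/- posterior pieces, against 1.91 and 2.98 TPM in wt posterior pieces. Adm, the vasodilator peptide adrenomedullin, had 24.3 and 48 TPM in Gcnf-/- anterior pieces, against 2.11 and 0.967 TPM in wt anterior pieces, and 51.9 and 40.8 TPM in Gcnf-/- posterior pieces, against 3.49 and 6.15 TPM in wt posterior pieces. Ier3, a small regulator of cell survival, had 47.3 and 57.3 TPM in Gcnf-/- anterior pieces, against 3.49 and 4.06 TPM in wt anterior pieces, and 53 and 35.8 TPM in Gcnf-/- posterior pieces, against 2.85 and 3.58 TPM in wt posterior pieces. No Gcnf-/- library overlapped a wt library in these 4 genes, and the differences of the last 3 were 3.86 ± 0.22, 3.44 ± 0.27 and 3.44 ± 0.13 (limma adjusted p = 1.9e-05, 6.8e-05 and 2.2e-06).

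Smaller rises filled the rest of the hypoxia list. Ankrd37 had 20.8 to 30.5 TPM in Gcnf-/- libraries, against 7.39 to 8.38 TPM in wt libraries (difference 1.61 ± 0.11). Vegfa, the growth factor of blood vessels, had 61.9 and 72.2 TPM in Gcnf-/- anterior pieces, against 37.5 and 35.1 TPM in wt anterior pieces, and 61.4 and 64.8 TPM in Gcnf-/- posterior pieces, against 32.6 and 31.8 TPM in wt posterior pieces. Pdk1, the kinase that turns pyruvate away from mitochondria, had 141 and 153 TPM in Gcnf-/- anterior pieces, against 64.7 and 79.4 TPM in wt anterior pieces, and 153 and 132 TPM in Gcnf-/- posterior pieces, against 74 and 71.6 TPM in wt posterior pieces. Both genes were higher in every Gcnf-/- library than in any wt library, with differences of 0.91 ± 0.07 and 0.99 ± 0.08 (limma adjusted p = 7.7e-05 and 0.00011) that were nearly equal in the regions (0.86 and 0.95 for Vegfa, 1.02 and 0.95 for Pdk1). The oxygen sensor gene Egln3 (1.91 ± 0.13) and the mitophagy receptor gene Bnip3 (1.73 ± 0.15) were also called, and with Higd1a they were picked after their values were seen. Among glycolysis genes the differences were smaller: 13 of 19 listed genes rose and none fell, against 17.5% higher and 11.2% lower over all genes. All 19 differences were positive, and the median was 0.42. The count of rises was 9 to 13 when 1 library was left out and 4 without both libraries numbered 153. Pfkfb3, which makes the activator of phosphofructokinase, had 56.9 to 91.6 TPM in Gcnf-/- libraries, against 27.1 to 33.6 TPM in wt libraries (difference 1.32 ± 0.14), and Gpi1, glucose phosphate isomerase, had 365 to 534 TPM in Gcnf-/- libraries, against 234 to 289 TPM in wt libraries (difference 0.77 ± 0.12).

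Windows of 3 hypoxia targets with different sizes of rise show where ACGTG lies, and here too only windows with a match are printed. They are the 250 bases before the start as above, with ACGTG on either strand in capitals. It begins 187 bases before the start of Ddit4 (chr10:59951771-59952020, minus strand), 229 before that of Egln3 (chr12:54203875-54204124, minus strand), and 108 and 107 before that of Bnip3 (chr7:138909507-138909756, minus strand), where 2 overlapping matches on opposite strands share a palindrome.
Ddit4: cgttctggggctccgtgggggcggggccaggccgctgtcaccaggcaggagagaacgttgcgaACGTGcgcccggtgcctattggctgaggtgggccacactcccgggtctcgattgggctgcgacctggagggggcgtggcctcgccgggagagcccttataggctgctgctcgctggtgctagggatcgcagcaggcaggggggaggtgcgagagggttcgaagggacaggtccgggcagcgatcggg
Egln3: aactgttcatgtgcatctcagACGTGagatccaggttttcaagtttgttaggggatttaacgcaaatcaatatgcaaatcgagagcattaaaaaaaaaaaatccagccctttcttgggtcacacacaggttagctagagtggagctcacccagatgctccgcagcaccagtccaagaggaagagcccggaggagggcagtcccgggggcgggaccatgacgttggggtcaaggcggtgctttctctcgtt
Bnip3: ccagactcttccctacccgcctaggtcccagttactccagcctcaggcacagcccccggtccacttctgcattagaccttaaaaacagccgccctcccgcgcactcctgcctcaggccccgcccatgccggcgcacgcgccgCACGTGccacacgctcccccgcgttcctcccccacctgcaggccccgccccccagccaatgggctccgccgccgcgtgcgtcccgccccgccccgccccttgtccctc
Of the 19 listed hypoxia targets with a window, 14 (73.7%) hold ACGTG, against 24.8% of tested genes with a window and 16.6% of all windows. In the integrated stress response list it was 4 of 19. These targets were first described in other cells partly through this motif, so the share describes the list and is no independent result. Genes with several annotated starts have several windows, and 1 match among them counts.

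Red cell transcripts moved in the same direction with a wide spread. Of 23 tested genes of primitive red cells, 19 rose and none fell, against 17.5% higher and 11.2% lower over all genes. Their median was 1.32, and 14 to 22 rose when 1 library was left out. The count was 8 without both libraries numbered 153 and 12 without both numbered 159. It was also 12 after rescaling without globin, mitochondrial and Mir6236 genes. That setting takes the globin genes out of the list, so fewer members were counted and the lower count is no loss of their calls. Summed over the full list, red cell genes took 22932 to 45345 TPM in Gcnf-/- libraries, against 4519.7 to 10340.0 TPM in wt libraries. Hbb-y, the embryonic beta-like globin, had 14441 and 10362 TPM in Gcnf-/- anterior pieces, against 1014 and 2755 TPM in wt anterior pieces, and 16239 and 9383 TPM in Gcnf-/- posterior pieces, against 1563 and 2122 TPM in wt posterior pieces. Gcnf-/- library 159 was above 163 in each region, and both were above all wt libraries (difference 2.82 ± 0.30, adjusted p = 0.00033). Alas2, the first enzyme of red cell haem synthesis, had 166 and 71.1 TPM in Gcnf-/- anterior pieces, against 11.7 and 26.7 TPM in wt anterior pieces, and 139.7 and 60.4 TPM in Gcnf-/- posterior pieces, against 16.9 and 20.4 TPM in wt posterior pieces. It showed the same order of Gcnf-/- libraries (difference 2.40 ± 0.35). Ddit4, Adm and Bhlhe40 had that order in posterior pieces and were higher in library 163 in anterior pieces. In bulk tissue more cells of a type and more RNA per cell cannot be told apart, and the part of red cells in the hypoxia result was not tested. Of 15 megakaryocyte and platelet genes 9 were tested, 5 of them only through the Gcnf-/- libraries, and 5 rose, among them the platelet chemokine Pf4 with 2.79 to 18.6 TPM in Gcnf-/- libraries, against 0 to 0.559 TPM in wt libraries (difference 3.10 ± 0.35). The risers Pf4, Plek and Ppbp passed the filter only through the Gcnf-/- libraries, as 977 of all 16699 genes did. The filter itself thus favoured rises in this list. The count of rises was 3 without Gcnf-/- posterior library 159 or wt posterior library 153 or 156. Macrophage genes had sums of 10.6 to 18 TPM in Gcnf-/- libraries, against 9.06 to 13.7 TPM in wt libraries, with 4 of 15 tested, 1 of them only through the Gcnf-/- libraries, and 1 called.

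Part of the integrated stress response rose evenly. In this pathway phosphorylation of a translation factor lets Atf4 be made, which switches on amino acid transport and synthesis genes. Of 22 tested genes 12 rose and none fell, against 17.5% higher and 11.2% lower over all genes. The median was 0.53 (0.52 anterior, 0.53 posterior). Stc2, a secreted stanniocalcin, had 41.7 to 61.7 TPM in Gcnf-/- libraries, against 15.2 to 16.2 TPM in wt libraries (difference 1.59 ± 0.12, adjusted p = 4.9e-05). Ddit3, the factor CHOP, had 18.7 to 24.4 TPM in Gcnf-/- libraries, against 7.22 to 9.26 TPM in wt libraries (difference 1.19 ± 0.10, adjusted p = 8.7e-05). Neither gene overlapped between the genotypes. The largest after Ddit4 were Chac1 (3.01 ± 0.27), a glutathione-degrading enzyme, and Trib3 (2.93 ± 0.27), a pseudokinase, both named after their values were seen. The other 10 did not pass the threshold, and 4 of the 22 differences were negative, the lowest at -0.20. Ddit4 and Stc2 stand in this list and in the hypoxia list. In a list of 15 one-carbon and serine genes, 1 of which passed the filter only through the Gcnf-/- libraries, 1 rose and 2 fell. The median there was -0.05.

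Neural progenitor and early neuron genes rose. Over all genes tested, 17.5% were called higher and 11.2% lower. Of 16 genes of a list of SoxB and neural progenitor factors, 10 rose and none fell, with a median of 0.57. The zinc finger genes Zic5 (1.36 ± 0.09) and Zic2 (0.63 ± 0.08) were among them. Fabp7 had 243 and 293 TPM in Gcnf-/- anterior pieces, against 33.4 and 63.9 TPM in wt anterior pieces, and 177 and 227 TPM in Gcnf-/- posterior pieces, against 7.42 and 20.5 TPM in wt posterior pieces. The wt posterior libraries were the lowest for it. Of 20 early neuron genes 14 rose, none fell, and the medians were 1.76 in anterior and 0.81 in posterior pieces. Of the 20, 5 passed the filter only through the Gcnf-/- libraries, Neurod4 among them. Neurod4, a neurogenic basic helix-loop-helix factor, had 9.53 and 9.01 TPM in Gcnf-/- anterior pieces, against 0.287 and 0.406 TPM in wt anterior pieces, and 5.25 and 4.45 TPM in Gcnf-/- posterior pieces, against 0.804 and 0.85 TPM in wt posterior pieces. Elavl3, an RNA-binding protein of new neurons, had 13.9 and 18.4 TPM in Gcnf-/- anterior pieces, against 1.22 and 1.8 TPM in wt anterior pieces, and 6.35 and 4.77 TPM in Gcnf-/- posterior pieces, against 0.741 and 1.06 TPM in wt posterior pieces. The genotypes did not overlap in either (differences 2.30 ± 0.23 and 2.28 ± 0.22, limma adjusted p = 0.00026 and 0.00019), and for Neurod4 the anterior difference exceeded the posterior one by 1.26 ± 0.22 (adjusted p = 0.044).

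**Figure D2:**
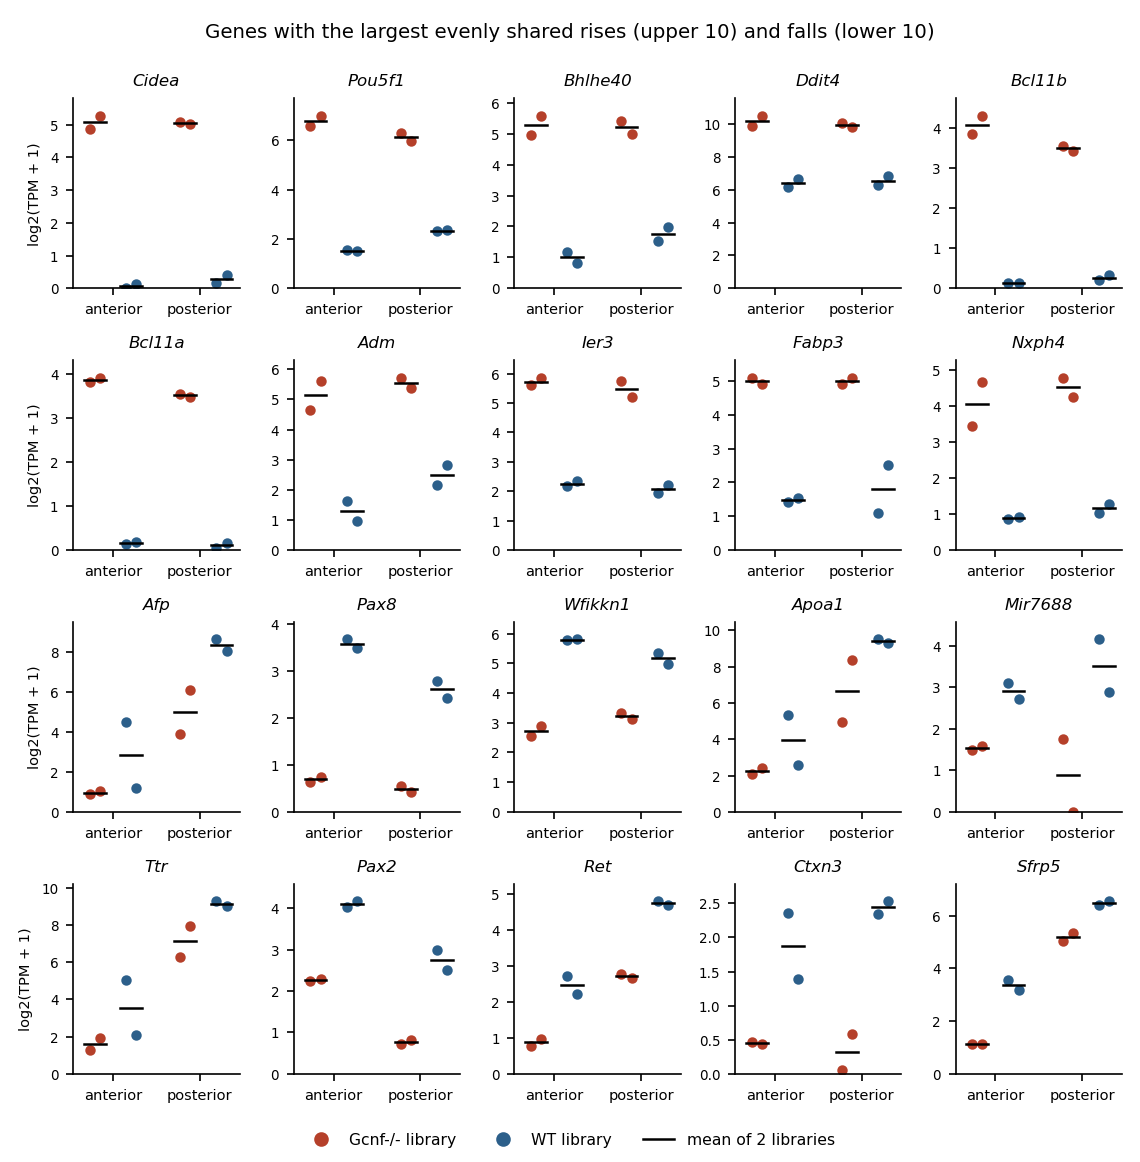
Levels on the log2(TPM + 1) scale (y axes starting at 0) of the 10 largest evenly shared rises and the 10 largest evenly shared falls, in anterior and posterior pieces, with Gcnf-/- libraries in red left of wt libraries in blue and the mean of each pair as a bar. Cidea, Bcl11a and Bcl11b lie near 0 in all wt libraries, and Pax8 stays below 1 in all Gcnf-/- libraries, while Afp, Apoa1 and Ttr differ widely between libraries of a group.

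Shared falls of this size were fewer: 49 genes fell evenly and without overlap by 1 or more, against 403 that rose. Pax8 and Pax2, paired-box factors of the midbrain-hindbrain boundary, the ear placode and the nephric duct, fell in both regions. Pax8 had 0.564 and 0.684 TPM in Gcnf-/- anterior pieces, against 11.8 and 10.3 TPM in wt anterior pieces, and 0.461 and 0.34 TPM in Gcnf-/- posterior pieces, against 5.9 and 4.4 TPM in wt posterior pieces. Pax2 had 3.72 and 3.87 TPM in Gcnf-/- anterior pieces, against 15.4 and 17 TPM in wt anterior pieces, and 0.652 and 0.762 TPM in Gcnf-/- posterior pieces, against 6.93 and 4.69 TPM in wt posterior pieces. The receptor tyrosine kinase Ret, which acts in the nephric duct and in enteric neural crest, had 0.699 and 0.961 TPM in Gcnf-/- anterior pieces, against 5.56 and 3.66 TPM in wt anterior pieces, and 5.79 and 5.31 TPM in Gcnf-/- posterior pieces, against 26.8 and 25 TPM in wt posterior pieces. Each of the 3 was lower in every Gcnf-/- library than in the wt libraries of its region, with differences of -2.51 ± 0.18, -1.91 ± 0.13 and -1.82 ± 0.14 (limma adjusted p = 4.1e-05, 3e-05 and 7.5e-05).

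Genes for the secreted proteins Wfikkn1 and Sfrp5 were also among the 10 largest shared falls. Wfikkn1, which binds the growth factors Gdf8 and Gdf11, had 4.8 and 6.36 TPM in Gcnf-/- anterior pieces, against 53.4 and 54.8 TPM in wt anterior pieces, and 9.08 and 7.76 TPM in Gcnf-/- posterior pieces, against 39.8 and 30.5 TPM in wt posterior pieces. Sfrp5, a secreted Wnt antagonist of foregut endoderm, had 1.16 and 1.18 TPM in Gcnf-/- anterior pieces, against 10.9 and 7.96 TPM in wt anterior pieces, and 31.9 and 39.7 TPM in Gcnf-/- posterior pieces, against 84.5 and 93.1 TPM in wt posterior pieces. Within each region the genotypes did not overlap (differences -2.50 ± 0.22 and -1.77 ± 0.19, limma adjusted p = 0.00012 and 0.00035). Ctxn3, a small membrane protein, had 0.0415 to 0.499 TPM in Gcnf-/- libraries, against 1.63 to 4.79 TPM in wt libraries (difference -1.77 ± 0.25). The microRNA gene Mir7688 passed the rule too, but it is 56 bases long and its TPM stood for 0 to 2 reads in Gcnf-/- libraries and 3 to 7 reads in wt libraries.

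Visceral endoderm genes were called with a wide spread. This tissue surrounds the early embryo, joins its gut and secretes carrier proteins. Of 17 tested genes, 3 of which passed the filter only through the wt libraries, 10 fell and none rose, with a median of -1.63. Over all genes 11.2% were lower and 17.5% higher. But the count of falls was 0 to 15 when 1 library was left out: 0 without wt posterior library 153 or 156, 1 without wt anterior library 153 and 3 and 4 without Gcnf-/- anterior library 163 and 159. Afp, alpha-fetoprotein, had 0.836 and 1.03 TPM in Gcnf-/- anterior pieces, against 21.7 and 1.3 TPM in wt anterior pieces, and 13.8 and 66.4 TPM in Gcnf-/- posterior pieces, against 396 and 266 TPM in wt posterior pieces. Ttr, the thyroxine carrier, had 1.44 and 2.74 TPM in Gcnf-/- anterior pieces, against 32.2 and 3.17 TPM in wt anterior pieces, and 76.3 and 246 TPM in Gcnf-/- posterior pieces, against 618 and 521 TPM in wt posterior pieces. Apoa1, a lipoprotein, had 3.17 and 4.26 TPM in Gcnf-/- anterior pieces, against 39.8 and 5.07 TPM in wt anterior pieces, and 30.2 and 323 TPM in Gcnf-/- posterior pieces, against 724 and 621 TPM in wt posterior pieces. In anterior pieces the wt library 153 alone was high, and in posterior pieces Gcnf-/- library 163 was several times above 159. The differences were -2.63 ± 0.70, -2.0 ± 0.58 and -2.24 ± 0.74 (limma adjusted p = 0.022, 0.03 and 0.048). None of the 3 calls held when wt anterior library 153, wt posterior library 153 or wt posterior library 156 was left out. Summed over the list the libraries held 24.2 to 1567 TPM in Gcnf-/- libraries, against 38.2 to 3203 TPM in wt libraries, and the part of unequal amounts of this tissue in the falls was not tested. Heart genes summed to 178 to 4285 TPM in Gcnf-/- libraries, against 61.6 to 1946 TPM in wt libraries. Of these, 2 of 19 were called higher (3 tested only through the Gcnf-/- libraries), a smaller share than the 17.5% over all genes. The heart count was 7 without Gcnf-/- posterior library 163.

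Modest shared shifts made up 2791 of the 4785 calls. By the rule used (called, 0.25 to 1 in size, no overlap in either region, the smaller regional difference at least 0.5 of the larger), these were 16.7% of the genes tested, 1767 up (10.6%) and 1024 down (6.13%). The balance turned with the scaling: the class held 1529 up and 1677 down after median-of-ratios scaling, and 1247 up and 1653 down after quantile normalization. Of the 2791, 2276 were also called in the same direction under both other scalings, 1273 up and 1003 down. The best supported were ranked by p among genes with at least 10 TPM. Upward, Acvr1b, a type I receptor for activin and Nodal, had 65.3 and 70.2 TPM in Gcnf-/- anterior pieces, against 38.5 and 35.7 TPM in wt anterior pieces, and 74.8 and 70.1 TPM in Gcnf-/- posterior pieces, against 43.8 and 42.5 TPM in wt posterior pieces. Por, the reductase that feeds electrons to cytochrome P450 enzymes, had 117 and 129 TPM in Gcnf-/- anterior pieces, against 66.5 and 71.2 TPM in wt anterior pieces, and 119.7 and 107 TPM in Gcnf-/- posterior pieces, against 63.7 and 66.9 TPM in wt posterior pieces. Psap, the precursor of the lysosomal saposins, had 368 and 477 TPM in Gcnf-/- anterior pieces, against 210.0 and 203 TPM in wt anterior pieces, and 446 and 467 TPM in Gcnf-/- posterior pieces, against 224 and 241 TPM in wt posterior pieces. These 3 rose by 74.8%, 76.1% and 100.1% in mean TPM, and the wt libraries never reached the Gcnf-/- range (differences 0.79 ± 0.07, 0.81 ± 0.07 and 0.99 ± 0.09; limma adjusted p = 0.0001, 0.0001 and 0.00012). Zfp3, a zinc finger protein, had 11.9 and 11.7 TPM in Gcnf-/- anterior pieces, against 5.64 and 5.62 TPM in wt anterior pieces, and 9.43 and 9.33 TPM in Gcnf-/- posterior pieces, against 4.37 and 4.38 TPM in wt posterior pieces. Its library pairs were almost equal, and its difference was 0.95 in both regions. The remaining modest rises on the list besides Vegfa and Pdk1 were Ptpmt1, a mitochondrial phosphatase of cardiolipin synthesis (0.84 ± 0.07), Commd3, an endosomal sorting factor (0.83 ± 0.07), Zadh2, a reductase (0.93 ± 0.08), and Plpp3, a lipid phosphate phosphatase (0.71 ± 0.06).

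The 10 modest falls with the smallest p held a protease, a chaperone and nucleolar and chromatin factors. Ide, the insulin-degrading protease, had 51.5 and 46.9 TPM in Gcnf-/- anterior pieces, against 90.1 and 91.5 TPM in wt anterior pieces, and 49 and 43.7 TPM in Gcnf-/- posterior pieces, against 85.4 and 78.1 TPM in wt posterior pieces. Hsph1, a chaperone of the Hsp110 family, had 87.3 and 81.1 TPM in Gcnf-/- anterior pieces, against 185 and 178 TPM in wt anterior pieces, and 94.5 and 92.6 TPM in Gcnf-/- posterior pieces, against 168 and 152 TPM in wt posterior pieces. Ddx21, a nucleolar RNA helicase, had 233 and 199.5 TPM in Gcnf-/- anterior pieces, against 487 and 468 TPM in wt anterior pieces, and 227 and 196 TPM in Gcnf-/- posterior pieces, against 376 and 329.9 TPM in wt posterior pieces. All were lower in each Gcnf-/- library than in any wt library, by 44.7%, 48% and 48.4% of the mean wt TPM (differences -0.84 ± 0.07, -0.94 ± 0.08 and -0.94 ± 0.11; limma adjusted p = 9.5e-05, 0.00013 and 0.00043). Polr1e, a subunit of RNA polymerase I, had 31 to 32.5 TPM in Gcnf-/- libraries, against 44.9 to 66.2 TPM in wt libraries (difference -0.81 ± 0.09). Erbb3, the neuregulin receptor of neural crest and glia, had 25.1 and 24.3 TPM in Gcnf-/- anterior pieces, against 38.4 and 38.4 TPM in wt anterior pieces, and 12.7 and 12.7 TPM in Gcnf-/- posterior pieces, against 19.4 and 20.2 TPM in wt posterior pieces. Its posterior level was lower in both genotypes, and its differences were -0.62 anterior and -0.60 posterior. The others were Ppp2r1b, a scaffold of protein phosphatase 2A (-0.70 ± 0.07), Ppm1g, a nuclear phosphatase (-0.68 ± 0.08), Ly75, an endocytic receptor (-0.75 ± 0.09), Dab1, the adaptor of reelin signalling (-0.96 ± 0.11), and Asf1b, a histone chaperone (-0.56 ± 0.07).

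**Figure D3:**
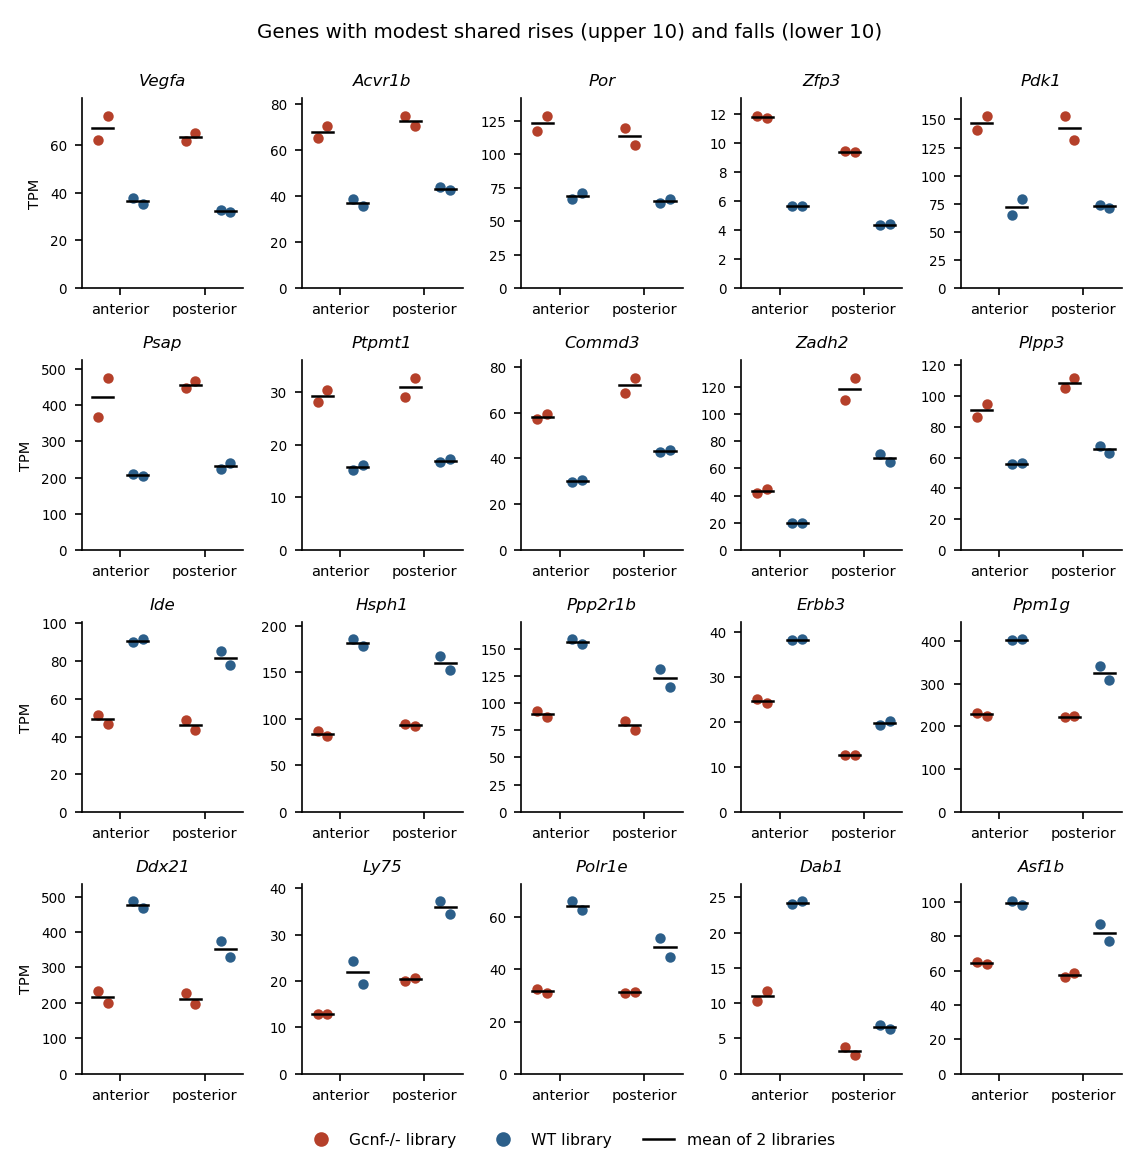
TPM (y axes starting at 0) of the 10 modest shared rises and 10 modest shared falls with the smallest p, in anterior and posterior pieces, with Gcnf-/- libraries in red left of wt libraries in blue and the mean of each pair as a bar. In every panel the 2 genotypes are apart in both regions, and the changes in mean TPM run from Dab1 (53.8% lower) to Zfp3 (111% higher).

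Lists of ribosome biogenesis, chaperone, proteasome and tRNA synthetase genes shifted downward, with larger median falls in anterior than in posterior pieces. Ribosome biogenesis genes, which process and assemble ribosomal RNA, had 21 of 29 lower and none higher, against 11.2% lower over all genes. Their median difference was -0.42 (-0.62 anterior, -0.26 posterior). The median over members, set against the wt mean of the region, was -0.62 to -0.26 in Gcnf-/- libraries, lower in the anterior ones. In wt libraries it was -0.09 to 0.09. Bop1, a 60S assembly factor, had 121 to 150.1 TPM in Gcnf-/- libraries, against 211 to 300.3 TPM in wt libraries (difference -0.94 ± 0.12), and Ncl, nucleolin, had 809 and 746 TPM in Gcnf-/- anterior pieces, against 1284 and 1303 TPM in wt anterior pieces, and 795 and 654 TPM in Gcnf-/- posterior pieces, against 1079 and 957 TPM in wt posterior pieces. Heat shock and endoplasmic reticulum chaperones had 13 of 20 lower and 1 higher (1 passed the filter only through the Gcnf-/- libraries). Their median was -0.35 (-0.51 anterior, -0.16 posterior). Hspa8, the constitutive Hsp70, had 347 and 347 TPM in Gcnf-/- anterior pieces, against 714 and 657 TPM in wt anterior pieces, and 371 and 350.4 TPM in Gcnf-/- posterior pieces, against 544 and 504 TPM in wt posterior pieces. Hspa5, the main Hsp70 of the endoplasmic reticulum, had 675 and 678 TPM in Gcnf-/- anterior pieces, against 1238 and 1143 TPM in wt anterior pieces, and 758 and 845 TPM in Gcnf-/- posterior pieces, against 1208 and 1069.6 TPM in wt posterior pieces. The differences were -0.61 ± 0.09, -0.76 ± 0.10 and -0.66 ± 0.09 (limma adjusted p = 0.0019, 0.00087 and 0.0012). The exception was Hspb1, a small heat shock protein, at 2.35 ± 0.39, named after its values were seen.

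The proteasome, which degrades ubiquitinated proteins, had 17 of 31 subunit genes lower and none higher, all 31 differences were negative, and the median was -0.29 (-0.44 anterior, -0.18 posterior). Psmd2, a scaffold of the lid and base, had 363 and 356 TPM in Gcnf-/- anterior pieces, against 541 and 513 TPM in wt anterior pieces, and 386 and 363 TPM in Gcnf-/- posterior pieces, against 487 and 448 TPM in wt posterior pieces. Psmd1 had 99.6 to 108 TPM in Gcnf-/- libraries, against 126 to 148 TPM in wt libraries. Their differences were -0.44 ± 0.07 and -0.42 ± 0.07 (limma adjusted p = 0.0031 and 0.0028). Cytosolic tRNA synthetases, which charge tRNA with amino acids, had 10 of 20 lower and 2 higher. Their median was -0.22 (-0.31 anterior, -0.12 posterior). Vars, which charges valine, had 248 to 285 TPM in Gcnf-/- libraries, against 335 to 437 TPM in wt libraries (difference -0.51 ± 0.09), while Qars, which charges glutamine, had 114 to 155 TPM in Gcnf-/- libraries, against 102 to 118 TPM in wt libraries (difference 0.31 ± 0.07) and was higher in Gcnf-/- pieces within each region. The Qars call was lost without both libraries numbered 159, 153 or 156 (limma adjusted p up to 0.091). For these lists and the next 2, the shares over all genes were 17.5% higher and 11.2% lower. Among 45 cytosolic ribosomal protein genes 9 were higher and 3 lower, and among 42 nuclear genes of oxidative phosphorylation 1 was higher and 2 were lower. After quantile normalization these were 19 higher and 6 lower for ribosomal proteins, and 6 higher and 2 lower for oxidative phosphorylation. The ribosomal protein rises were 3 without Gcnf-/- anterior library 163 or wt anterior library 153, 4 without wt anterior or posterior library 156, 5 without Gcnf-/- posterior library 163 and 0 without both libraries numbered 153.

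By the rule for modest shared shifts, 11 ribosome biogenesis, 6 chaperone, 6 proteasome and 1 tRNA synthetase falls counted. The counts of called falls depended on single libraries. Leaving out 1 library gave 15 to 23 lower for ribosome biogenesis, 6 to 13 for chaperones, 6 to 27 for the proteasome and 3 to 11 for tRNA synthetases, the lowest of them without wt anterior library 153. The proteasome count was 7 without wt anterior library 156 or Gcnf-/- anterior library 163, 10 without wt posterior library 153 and 27 without Gcnf-/- posterior library 163. The chaperone count was also 6 without wt anterior library 156, wt posterior library 153 or Gcnf-/- anterior library 159, 7 without Gcnf-/- anterior library 163 and 8 without Gcnf-/- posterior library 159. The tRNA synthetase count was 4 without wt anterior library 156, 5 without Gcnf-/- anterior library 163 and 6 without wt posterior library 153. Leaving out both libraries numbered 153 gave 8, 4, 0 and 1, and leaving out both numbered 159 gave 3 for the proteasome.

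**Figure D4:**
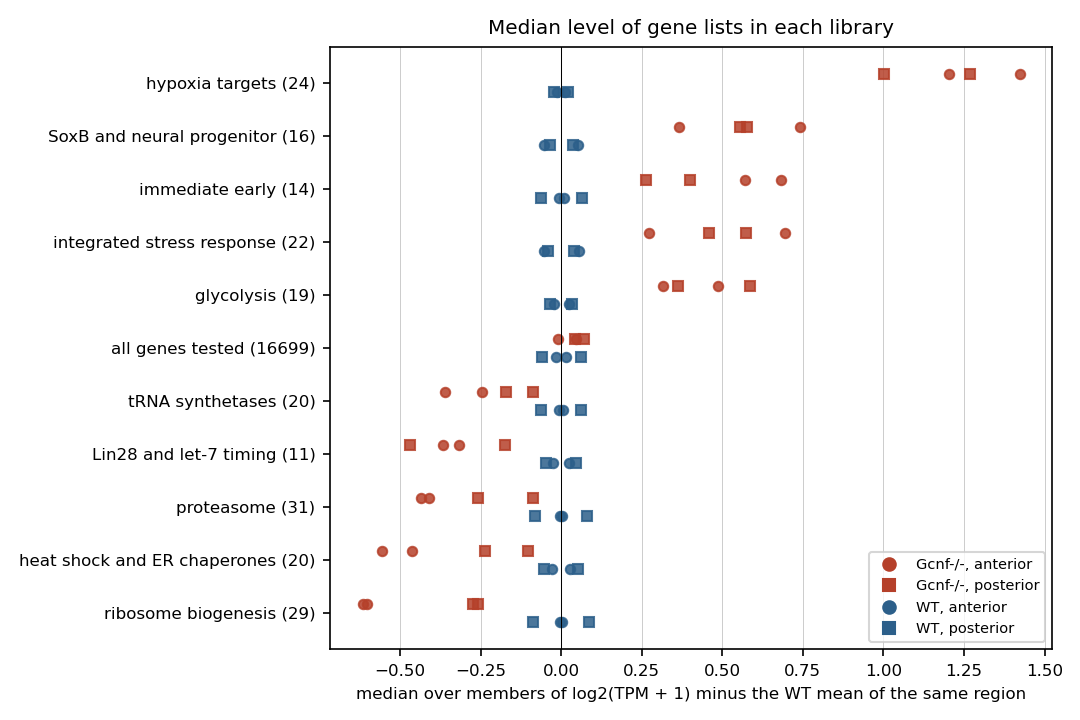
Median over the members of 10 gene lists, and over all 16699 genes, of log2(TPM + 1) minus the wt mean of the same region (x axis), with 1 point per library, Gcnf-/- libraries in red above wt libraries in blue, circles for anterior and squares for posterior pieces. The hypoxia list stands at 1.00 to 1.42 in Gcnf-/- libraries, against -0.02 to 0.02 in wt libraries, and the ribosome biogenesis list at -0.62 to -0.26 in Gcnf-/- libraries, against -0.09 to 0.09 in wt libraries, where the 2 wt values of a region mirror each other by construction.

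Timing and cell cycle regulators shifted in a few members. For the lists in this paragraph, the shares over all genes were 17.5% higher and 11.2% lower. Lin28 proteins block maturation of let-7 microRNAs and mark early developmental time. Of 11 genes in a list of Lin28, let-7 targets and timing factors, 5 fell and 1 rose. Lin28b had 85.1 and 71.5 TPM in Gcnf-/- anterior pieces, against 130.3 and 121 TPM in wt anterior pieces, and 65.5 and 56 TPM in Gcnf-/- posterior pieces, against 98.3 and 79 TPM in wt posterior pieces. Hmga1, an architectural chromatin protein, had 468 and 513 TPM in Gcnf-/- anterior pieces, against 772 and 776 TPM in wt anterior pieces, and 411 and 424 TPM in Gcnf-/- posterior pieces, against 595 and 578 TPM in wt posterior pieces. Mycn, the neural progenitor Myc protein, went the other way with 339.9 and 367 TPM in Gcnf-/- anterior pieces, against 254 and 269 TPM in wt anterior pieces, and 338 and 348 TPM in Gcnf-/- posterior pieces, against 243 and 245 TPM in wt posterior pieces. Its rise was even (0.43 and 0.49), and the 3 differences were -0.61 ± 0.10, -0.57 ± 0.07 and 0.46 ± 0.06 (limma adjusted p = 0.0023, 0.00064 and 0.001). In G1 control, Cdkn1b, the inhibitor p27, had 76.1 and 77 TPM in Gcnf-/- anterior pieces, against 26.2 and 30.2 TPM in wt anterior pieces, and 44.7 and 61.5 TPM in Gcnf-/- posterior pieces, against 23.4 and 24.7 TPM in wt posterior pieces. Ccne1, cyclin E1, had 114 and 100.3 TPM in Gcnf-/- anterior pieces, against 258 and 267 TPM in wt anterior pieces, and 95 and 105 TPM in Gcnf-/- posterior pieces, against 201 and 173 TPM in wt posterior pieces. The genotypes did not overlap (differences 1.25 ± 0.11 and -1.09 ± 0.10, limma adjusted p = 0.00014 and 0.00015), and of the 19 genes of that list 8 rose and 3 fell. DNA replication genes had 7 of 28 lower and none higher (median -0.13), a count of 1 to 12 when 1 library was left out, with 1 without wt anterior library 153 or 156, wt posterior library 153 or Gcnf-/- anterior library 163, 4 without Gcnf-/- posterior library 159 and 12 without Gcnf-/- posterior library 163.

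Immediate early genes, which cells transcribe within minutes of a stimulus, were 10 of 14 higher and 1 lower, with 6 higher without both libraries numbered 153 or both numbered 156. Over all genes 17.5% were higher and 11.2% lower. Jun had 55 and 71.1 TPM in Gcnf-/- anterior pieces, against 32.4 and 33.4 TPM in wt anterior pieces, and 78.1 and 85 TPM in Gcnf-/- posterior pieces, against 40.2 and 46.5 TPM in wt posterior pieces. Fos had 1.97 to 2.82 TPM in Gcnf-/- libraries, against 0.71 to 1.09 TPM in wt libraries. Both were apart between genotypes, with even differences of 0.90 ± 0.09 and 0.81 ± 0.12 (limma adjusted p = 0.00025 and 0.0016).

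Neural crest and Fgf pathway lists held more called falls than called rises, and 3 and 4 of their members differed between the regions. Of 23 crest genes 10 fell and 2 rose, against 11.2% lower and 17.5% higher over all genes. The crest median was only -0.08 (-0.27 anterior, 0.08 posterior), with 12 differences negative and 11 positive. Sox10, the master factor of migrating crest and glia, had 47.7 and 44.8 TPM in Gcnf-/- anterior pieces, against 104 and 120.1 TPM in wt anterior pieces, and 2.62 and 2.36 TPM in Gcnf-/- posterior pieces, against 20.5 and 24.7 TPM in wt posterior pieces. Its fall was -1.25 in anterior and -2.75 in posterior pieces, a difference between the regions of 1.498 ± 0.18 (limma adjusted p = 0.0092). Cdh6, a cadherin of premigratory crest, had 14.4 to 24.7 TPM in Gcnf-/- libraries, against 21.7 to 60.5 TPM in wt libraries (difference -0.87 ± 0.14). It was lower in Gcnf-/- pieces within each region. Of 18 Fgf pathway genes 8 fell and 3 rose, among the falls Etv5, a transcriptional readout of Fgf signalling (-1.15 ± 0.14), and Spry1, a feedback inhibitor (-0.33 ± 0.06). The Fgf falls were 5 without wt anterior library 153 or 156 or Gcnf-/- anterior library 163, and 1 without both libraries numbered 153, where the crest falls were 5.

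Some genes passed the shared test although 1 region carried the effect. Hoxb13, a tail-end Hox gene, had 38.8 and 32.1 TPM in Gcnf-/- posterior pieces, against 0.122 and 0.0645 TPM in wt posterior pieces. All anterior libraries were below 1 TPM, and the difference between regions was -5.05 ± 0.26 (limma adjusted p = 0.00029). En2, a homeobox factor of the midbrain-hindbrain boundary, had 0.938 and 1.39 TPM in Gcnf-/- anterior pieces, against 51.1 and 68.9 TPM in wt anterior pieces. All posterior libraries were below 1 TPM (difference between regions -4.75 ± 0.29, adjusted p = 0.00059). For Hoxb13 and En2 the additive estimate (2.53 ± 0.84 and -2.44 ± 0.79) is therefore an average of 2 unlike values. The genotype call ended in 11 of the 20 alternative settings that tested Hoxb13 and in 11 of 24 for En2, leaving out wt posterior library 156 among them for both. Insm1, a zinc finger factor of new neurons, had 18.8 and 26.9 TPM in Gcnf-/- anterior pieces, against 1.93 and 2.42 TPM in wt anterior pieces, and 5.77 and 4.1 TPM in Gcnf-/- posterior pieces, against 1.69 and 1.77 TPM in wt posterior pieces. It rose more in the head (1.78 ± 0.29, adjusted p = 0.031). Nhlh1 and Stmn4, also of new neurons, and the glycolytic Aldoc had anterior differences of 3.67, 2.74 and 2.65 and posterior differences of 1.83, 1.12 and 1.21. The visceral endoderm genes Spp2, Apob and Apoa4 had larger falls in posterior pieces (-3.71, -2.62 and -2.89) than in anterior pieces (-0.91, -1.29 and -0.97). Leaving out wt posterior library 153 or 156 ended the genotype calls of these 3. For these 6 genes the difference between regions did not pass the threshold.

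**Figure D5:**
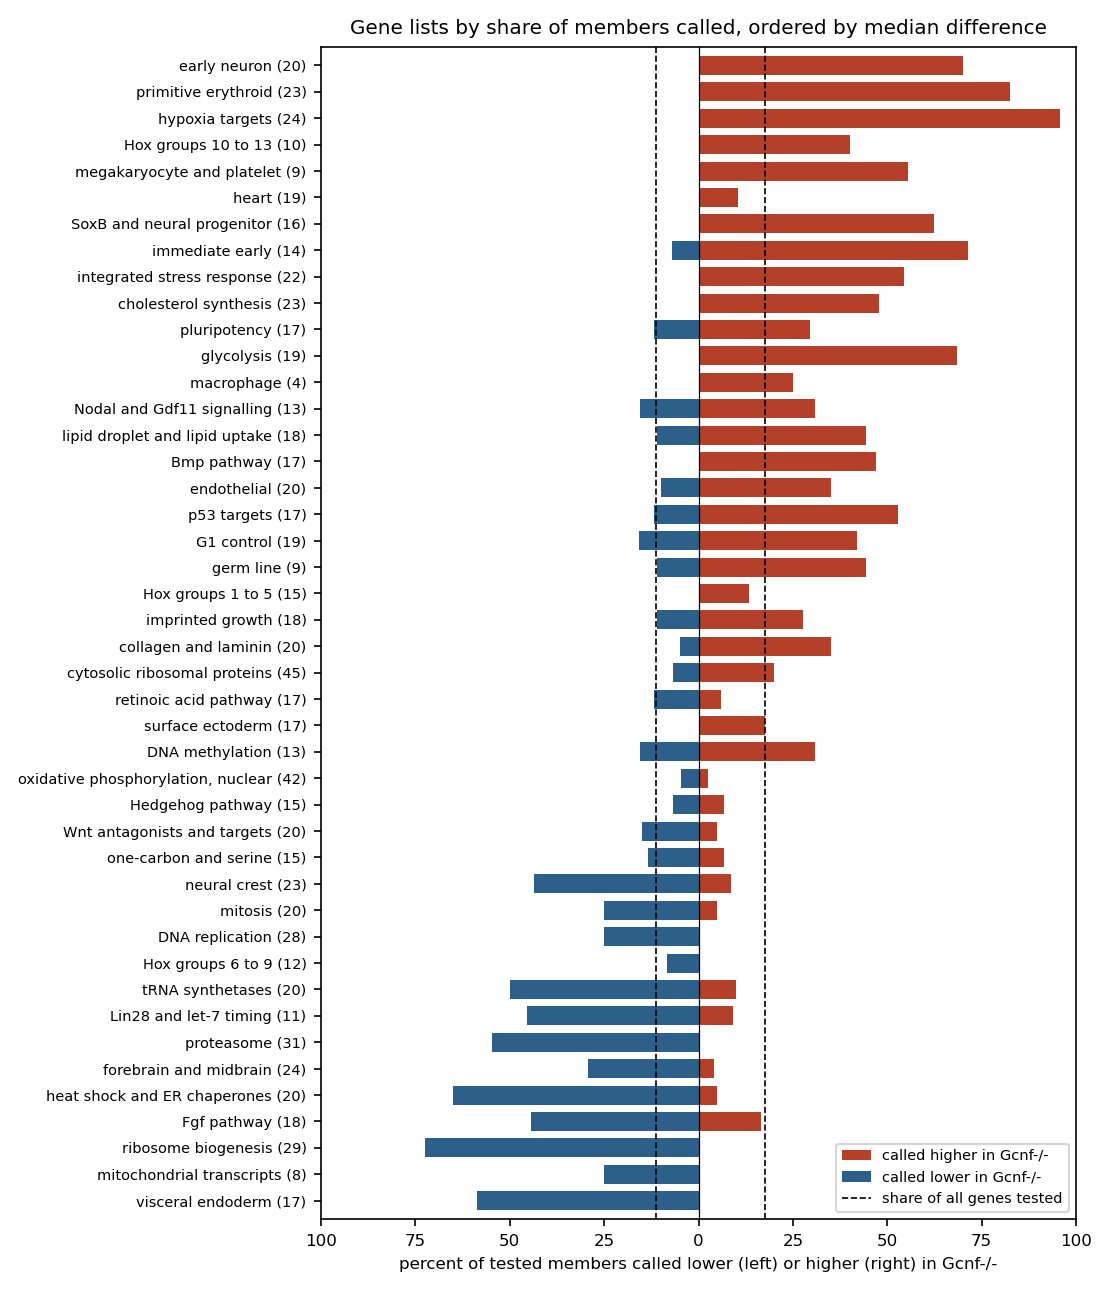
Percent of tested members (number in brackets) of 44 gene lists that were called lower (bars to the left) or higher (bars to the right) in Gcnf-/- pieces, ordered by the median difference of the members. The dashed lines mark the shares over all 16699 genes, 11.2% lower and 17.5% higher, which the hypoxia list exceeds with 23 of 24 higher and the ribosome biogenesis list with 21 of 29 lower.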

How the data were processed

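RNA of 8 embryo pieces was sequenced as poly-A selected, non-stranded libraries, per the labels' protocols. CASAVA 1.8.2, STAR and the build mm10 are named in the submitters' processing notes, while annotation and counting steps are not given there. As deposited, 1 table holds TPM per gene as the authors computed it, which carries no read counts. Multiplying TPM by gene length (GENCODE M21, GRCm38) gave whole reads, within 0.01, for 98.8 to 98.9% of nonzero values. The depth was taken from this scale, and no count test was run.

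Values were taken as log2(TPM + 1). Genes with at least 1 TPM in at least 2 libraries were fitted in limma 3.58.1 (R 4.3.3) with genotype and region as terms, a trended prior and Benjamini-Hochberg adjustment over all 16699 genes. The threshold was 0.05. A second fit added the interaction of genotype and region. The steps were tested on simulated data. With 4 libraries per genotype, 5 residual degrees of freedom remain.

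Named genes are Nr6a1, the 10 largest even rises and falls (at least 2 TPM), the 10 modest rises and falls with the smallest p (at least 10 TPM, called under both other scalings), the 5 largest uneven rises and falls, and up to 4 members per list with the smallest p. Some genes that the rule takes are left out of the text. Predicted, sex-chromosomal and mitochondrial genes were left out of the size ranks. Members and the 44 lists were chosen with earlier results of these data known. Alternatives covered the pseudocount, filter, scaling, spread, library weights, replicate block, group means and left-out libraries.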

Additional observations from a re-analysis of the deposited data

Results flagged for a closer look

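For 7 of the genes named, the genotype effect itself differed between the regions in the limma interaction test (Benjamini-Hochberg adjusted over all genes). These values are anterior minus posterior differences on the log2(TPM + 1) scale, each with 2 libraries per group. Hoxb13 (-5.05 ± 0.26, adjusted p = 0.00029) was 0.00 anterior and 5.06 posterior, and En2 (-4.75 ± 0.29, adjusted p = 0.00059) was -4.81 anterior and -0.06 posterior. The anterior rise was the larger for Pou5f1 (1.47 ± 0.23, adjusted p = 0.026), Nanog (1.62 ± 0.25, adjusted p = 0.024), Insm1 (1.78 ± 0.29, adjusted p = 0.031) and Neurod4 (1.26 ± 0.22, adjusted p = 0.044). Sox10 (1.498 ± 0.18, adjusted p = 0.0092) fell more in posterior pieces.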

How the results depend on the processing

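Against 4785 genes called for genotype, leaving out 1 library, or both of 1 number, gave 1461 to 5105, the modest shared shifts were 903 to 3043 against 2791, and the genes whose effect differed between regions 0 to 213 against 169. No filter on low values gave 55 for the last of these and 3453 calls for genotype. Without both libraries numbered 153, 1219 genes were higher and 242 lower, and 30.2% of the 4785 calls were kept. The cause was not tested, beyond that fewer libraries enter. Called genes never changed sign in the 24 alternative settings. Of 100 called genes named with a test, 86 kept their call in each setting that tested them, which was fewer than 24 settings for Ctxn3, Fos, Hbb-y, Tet2 and Hoxb13. The uncalled Nr6a1 difference was 0.029 after quantile normalization and 0.014 with library weights, and -0.22 to 0.12 with libraries left out.

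Same-numbered anterior and posterior libraries deviated together with correlations of 0.136 (Gcnf-/-) and 0.0216 (wt). The deviations of the 2 libraries in a group mirror each other, so these correlations cannot decide whether the numbers pair the libraries. Both libraries numbered 159 had Xist (25.3 TPM anterior, 30.9 TPM posterior), against at most 0.0749 TPM in any other library. Red cell sums were higher in Gcnf-/- library 159 than in 163 in both regions, while Ddit4 changed order between the regions. Pairing is thus neither shown nor excluded. With the number as a random replicate block, 5188 genes were called, and with 1 mean per number 4414. The block correlation was -0.064, and a value below 0 narrows the SE of the genotype difference. The larger count is therefore no sign that shared embryos leave the calls unaffected. With 2 libraries per group, differences of low genes rest on few reads, as for Mir7688.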

Other observations

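Bmp pathway genes were called in 1 direction. Of 17 genes of that pathway, 8 rose and none fell, against 17.5% higher and 11.2% lower over all genes. The median was 0.27. Bmp4, a ligand that patterns dorsal neural tube and ventral mesoderm, had 52.2 and 52.4 TPM in Gcnf-/- anterior pieces, against 20.8 and 24.5 TPM in wt anterior pieces, and 119 and 119 TPM in Gcnf-/- posterior pieces, against 59.3 and 63.6 TPM in wt posterior pieces. Within each region the genotypes did not overlap (difference 1.06 ± 0.08, limma adjusted p = 5.6e-05), and Bmp5, another ligand, differed by 0.49 ± 0.08. The count was 5 without wt anterior library 153 or Gcnf-/- anterior library 163, 4 without both libraries numbered 156 and 3 without both numbered 153.

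Of 18 imprinted growth genes 5 rose and 2 fell, against 17.5% higher and 11.2% lower over all genes. Plagl1, a zinc finger factor of an imprinted gene network, had 58.9 and 75.5 TPM in Gcnf-/- anterior pieces, against 21.4 and 19.9 TPM in wt anterior pieces, and 194 and 193 TPM in Gcnf-/- posterior pieces, against 65.4 and 61 TPM in wt posterior pieces. Phlda2, a growth-limiting gene best known in placenta, had 9.78 and 11.7 TPM in Gcnf-/- anterior pieces, against 32.1 and 21.7 TPM in wt anterior pieces, and 46.7 and 60.3 TPM in Gcnf-/- posterior pieces, against 188 and 152 TPM in wt posterior pieces. Within each region the genotypes did not overlap for either (differences 1.62 ± 0.08 and -1.44 ± 0.15, limma adjusted p = 1.1e-05 and 0.00033). Of 13 DNA methylation genes tested 4 rose and 2 fell (median 0.02). Dnmt3b, a de novo DNA methyltransferase, fell with 51.5 to 105 TPM in Gcnf-/- libraries, against 85.2 to 153 TPM in wt libraries (difference -0.65 ± 0.08), and Tet2, which oxidises methylated cytosine, rose with 2.74 to 4.74 TPM in Gcnf-/- libraries, against 1.26 to 1.63 TPM in wt libraries (difference 0.91 ± 0.12). Dnmt3a, the other de novo methyltransferase, named after its values were seen, was higher (0.32 ± 0.09, adjusted p = 0.026), a call that ended in 10 of the 24 alternative settings, leaving out any 1 library other than Gcnf-/- posterior 163 and wt posterior 153 among them. Among vessel markers, Pecam1 rose by 0.96 ± 0.11 and Cldn5 by 1.07 ± 0.12, while Ets1 fell (-0.67 ± 0.13), and 7 of 20 endothelial genes rose and 2 fell, against 17.5% and 11.2% over all genes, with 3 rises without both libraries numbered 153 or both numbered 156. Cholesterol synthesis genes had 11 of 23 higher and none lower, with medians of 1.00 in anterior and 0.16 in posterior pieces. That count was 4 to 18 when 1 library was left out, 4 without Gcnf-/- anterior library 163 and 18 without Gcnf-/- posterior library 163, and 1 without both libraries numbered 153.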
